A study of Mus musculus with 8 samples.

Results

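The epithelial cells of mouse back skin at embryonic day 15 (E15) were compared between p63 knockout and control libraries. A barcode is the tag of 1 droplet and usually of 1 cell, and a UMI (unique molecular identifier) is 1 counted RNA molecule. Barcodes with 500 or more genes, and with mitochondrial RNA making up 20% of UMIs or less, were kept. Members were selected on measured values, the UMIs of 12 genes, of which 4 or more had to be seen: the adhesion genes Cdh1 and Epcam, the claudins Cldn7 and Cldn6, the regulators Grhl2, Esrp2 and Esrp1, the protease Prss8 with its inhibitor Spint1, and Lsr, Ap1m2 and Rab25. The rule took 158 of the 3946 kept E15 barcodes, of 4348 E15 barcodes and 8339 barcodes in the whole series. There were 45 in the wild-type library (WT), 39 in the heterozygous library (HET), 18 in the first knockout library (KO_1) and 56 in the second (KO_2).

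The study profiled single cells of dissected back skin, freed with collagenase and trypsin and run on 10x Genomics 3' kits, to ask how early epidermis differs between control and p63 knockout mice. The labels give the genotypes as WT, <delta>Np63 -GFP KI-Het and <delta>Np63 -GFP KI-KO, so the HET library carried 1 mutant allele and the control arm joined both genotypes. The same design was repeated at embryonic day 13 (E13), where the rule took 167, 159, 111 and 159 barcodes from the WT, HET, KO_1 and KO_2 libraries. Nothing in the labels says whether libraries came from separate embryos or pools, so p-values measure only the spread between these libraries, which may be technical.

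The transcription factor p63, made from Trp63, is needed for the stratified epidermis, and its deltaN form prevails in the basal layer. A single-layered embryonic surface that carries simple keratins (Krt8, Krt18) turns into a basal layer marked by Krt5 and Krt14, and basal cells then move up, switch to Krt1 and Krt10 and build the cornified barrier. Mice without p63 lack a normal stratified epidermis, hair follicles and other skin appendages.

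The epithelial share of kept barcodes was 8.12% in WT (95% exact binomial interval 5.99 to 10.7), 4.23% in HET (3.02 to 5.74), 1.72% in KO_1 (1.02 to 2.71) and 3.93% in KO_2 (2.98 to 5.08). HET and KO_2 lay close together, and 2 libraries against 2 cannot reach an exact permutation p under 0.333, so no test was run. The intervals cover counting error only. Summed over the members, the libraries held 824466, 968601, 698788 and 1734786 UMIs in the order WT, HET, KO_1 and KO_2, with medians of 15503 to 24973 UMIs a barcode, and levels below are given as CPM, the UMIs of a gene per 1000000 UMIs of the members. Pairs of E15 libraries shared 0 to 6 barcodes.

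The markers of the rule were carried unevenly, which is a description of how members were chosen and not a result. The median member held 5 markers in WT, 6 in HET, 10.5 in KO_1 and 10 in KO_2, and 2 of 45, 5 of 39, 16 of 18 and 36 of 56 members held 9 or more. Epcam was at 221, 404, 718 and 613 CPM, Cldn7 at 4.85, 4.13, 119 and 49, and Rab25 at 363, 212, 75.8 and 144. Barcodes just outside the rule, with 3 markers, numbered 18, 15, 2 and 1, and barcodes just inside it, with 4, numbered 17, 4, 1 and 4. Krt14 was at 6356 CPM in the 18 WT barcodes with 3 markers and at 4426 in the 17 with 4, so the threshold cut through a keratinocyte population in WT. In the 15 HET barcodes with 3 markers Krt14 was at 722 and the collagen gene Col1a1 at 2804.

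Libraries also differed in what else their epithelial barcodes held. The summed level of 12 fibroblast markers was 1635, 1978, 1790 and 3830 CPM, and was highest in KO_2, where 6 of 56 members carried these markers at 0.5 times or more their median share in barcodes with no epithelial marker. Col1a1 itself was at 245, 213, 272 and 898, against 3120 to 5169 in barcodes with no epithelial marker. Mural markers were at 876, 317, 65.8 and 138, against 172, 210, 193 and 252 in barcodes with no epithelial marker. Endothelial markers were at 273, 56.8, 18.6 and 41.5, against 109, 169, 137 and 126 there. Mural markers in WT and HET and endothelial markers in WT were thus higher in members than outside the rule. The mural list includes Notch3, and Abcc9 and Higd1b of that list had 0 UMIs in WT and HET members, so the sum alone does not show mural cells. Schwann markers, Erbb3 among them, were at 106, 59.9, 117 and 94.0, against 22.4, 42.7, 23.0 and 16.7 outside. Cartilage markers were at 150 in HET members, against 26.6 outside. Mast cell and granulocyte markers were at 48.5, 204, 934 and 230, against 413 to 2346 outside. Haemoglobin and other red cell genes were at 2355, 5360, 5225 and 11868, against 28444 to 92951. Their part in the results was not tested, except that results were recomputed without the 6 fibroblast-rich barcodes and without each library. No doublet caller was run.

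Trp63 itself, the targeted gene, had 177 UMIs in WT and 161 in HET against 0 in KO_1 and 2 in KO_2. Its level was 215, 166, 0 and 1.15 CPM, 229 times lower in the KO arm with a counting interval of 63 to 1902. These are reads from the 3' end, which the deltaN and longer forms share. Across all genes, 1010 of 8192 tested genes (12.3%) were called at an adjusted p under 0.05 in edgeR's quasi-likelihood test with Benjamini-Hochberg adjustment, 517 higher in KO (6.31%) and 493 lower (6.02%), with a median log2 fold change of -0.01. The counts in lists below are to be set beside these shares as a description. The lists were chosen with earlier results of these data known, so the counts are no test of enrichment. The 2 arms did not overlap for 58.6% of tested genes, so arms that are apart were common. For the largest rises and falls named below, the naming rule itself required that the arms did not overlap.

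The keratins changed their make-up in the KO epithelium. Krt8, the type II keratin of simple epithelia, was at 9.70 and 9.29 CPM in WT and HET and at 668 and 462 in KO_1 and KO_2, a log2 fold change of +5.83 ± 0.33 (SE, adjusted p = 4.63e-05). Both KO libraries stood far above both controls. Its partner Krt18 was at 7.28 and 0 against 394 and 279 (+6.54 ± 0.69, adjusted p = 0.00368), and Krt19, a small keratin of simple and glandular layers, at 1.21 and 4.13 against 574 and 646 (+7.68 ± 0.37, adjusted p = 4.63e-05). Krt7 rose too, from 4.85 and 12.4 to 64.4 and 92.2 (adjusted p = 0.00221). In no case did the arms overlap. HET held 0 Krt18 UMIs, so the size of that rise rests on the 6 UMIs of WT, and the Krt7 call was lost (adjusted p = 0.0778) when all 8 libraries shared 1 estimate of the spread.

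Krt5, the basal layer's type II keratin, was at 1406 and 845 CPM in control and at 47.2 and 132 in KO (-3.67 ± 0.55, adjusted p = 0.0138). The arms did not overlap, and the call was lost without WT (adjusted p = 0.0913) or without HET (0.234). Krt14, its partner, was at 2787 and 1011 against 11.4 and 84.7 and did not pass (adjusted p = 0.0919), although the arms did not overlap. Krt15, another basal type I keratin, was at 1348 and 756 against 2048 and 2687, higher in both KO libraries but not called (+1.10, adjusted p = 0.0651). Krt17, a keratin of periderm, appendages and wounded skin, was at 826 and 1486 against 17.2 and 168 (adjusted p = 0.155). Of these 4 keratins only Krt5 was called. Because barcodes were summed, fewer cells that make a keratin and less of its RNA per cell cannot be told apart.

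The suprabasal keratins were low in KO in a way that varied between controls. Krt1 was at 7395 and 1627 CPM against 5.72 and 58.2, and Krt10 at 10671 and 3208 against 44.4 and 214. Neither passed (adjusted p = 0.103 and 0.0880), although no KO library came near a control. Krt77, expressed in suprabasal cells of embryonic skin and later in sweat ducts, was at 546 and 469 against 1.43 and 8.07 and fell (-6.46 ± 0.42, adjusted p = 0.000131). Krt4, a keratin of internal stratified epithelia, went the other way, with 0 and 1 UMI in control and 44 and 459 in KO, a level of 0, 1.03, 63 and 265 CPM. Its KO to control ratio was 371 (counting interval 66.2 to 14667, adjusted p = 0.0361), and the call was lost without WT (0.330) or HET (0.488), with every gene tested (0.191), and with stricter barcode filters (0.221), a threshold of 3 markers (0.0525) or all 8 libraries in the fit (0.0757).

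**Figure D1:**
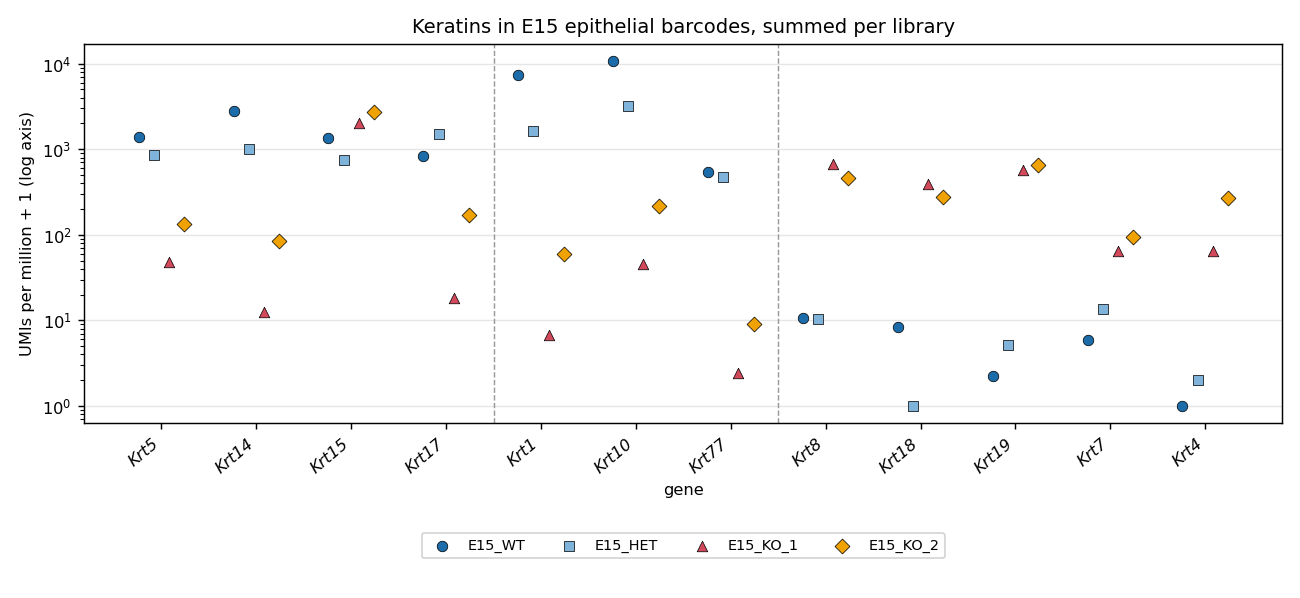
Levels of the keratin genes in the epithelial barcodes of each E15 library, in CPM on a log axis with 1 added; each point is 1 library. Krt8, Krt18 and Krt19 lie at 279 or more in KO and at 9.70 or less in control, Krt5, Krt14, Krt1 and Krt10 are higher in control, and Krt15 is at 756 to 2687 in all 4 libraries.

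Counted per barcode, after each was thinned to 2000 UMIs, Krt8 was detected in 0% of WT, 2.56% of HET, 72.2% of KO_1 and 60.7% of KO_2 members, and Krt14 in 80.0%, 76.9%, 0% and 10.7%. Krt19 was detected in 0%, 0%, 61.1% and 51.8%, while Krt15 was found in most KO members (88.9% and 89.3%) and in 62.2% and 53.8% of control members. At full depth the UMIs of KO_2 were unevenly spread for some genes. Its 147 Krt14 UMIs lay in 18 of 56 barcodes, and 1 barcode held 54 of them. Of 101 Krt1 UMIs in KO_2, 1 barcode held 49. By contrast 4661 Krt15 UMIs lay in 54 KO_2 barcodes and 802 Krt8 UMIs in 53, and the 5 barcodes with most held 28.2% of the Krt8 and 31.1% of the Krt15 UMIs. At equal depth, Krt8 was found in 1.69% and Krt15 in 4.78% of KO_2 barcodes with no epithelial marker. Krt14 was detected, thinned, in 22.8% and 21.8% of control barcodes with no epithelial marker, so Krt14 UMIs were also present in control barcodes outside the rule, and in 0% and 0.468% of such KO barcodes.

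Sorted by thinned detection, 14 of 18 KO_1 and 35 of 56 KO_2 members held a simple keratin (here Krt8 or Krt18), against 0 of 45 in WT and 1 of 39 in HET. A basal keratin of the pair Krt5 and Krt14 was seen in 40 of 45 WT, 36 of 39 HET, 2 of 18 KO_1 and 20 of 56 KO_2 members. In KO_2, 8 members held a basal and a simple keratin and 3 more held these and a suprabasal one (Krt1 or Krt10).

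**Figure D2:**
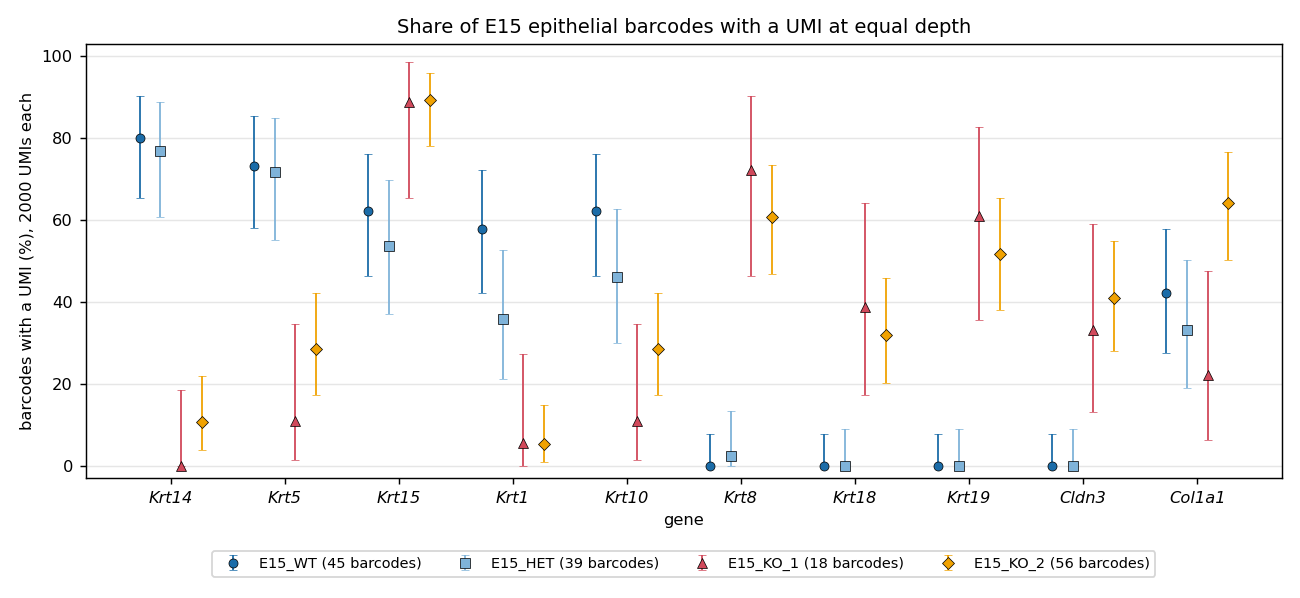
Share of epithelial barcodes in each E15 library with at least 1 UMI of a gene after thinning to 2000 UMIs a barcode, in percent; each point is 1 library and the bars are 95% exact binomial intervals. Krt8 is detected in 60.7% or more of KO members and in 2.56% or fewer of control members, and Krt14 shows the opposite order.

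Genes that fasten the basal layer to the basement membrane fell with Krt5. Of 19 tested members of a basal and attachment list, 10 fell and 0 rose, with a median log2 fold change of -1.78. Col17a1, the transmembrane collagen of hemidesmosomes, was at 94.6 and 155 CPM in control and at 0 and 2.88 in KO (-5.92 ± 0.52, adjusted p = 0.000432). Lamb3 and Lama3, chains of the anchoring laminin 332, were at 37.6 and 91.9 against 5.72 and 5.76 (-3.51, adjusted p = 0.00352) and at 25.5 and 51.6 against 4.29 and 6.34 (-2.79, adjusted p = 0.00628). The arms were apart for all 3 genes. Itga6, the laminin-binding integrin subunit of basal cells, was at 93.4 and 132 against 21.5 and 22.5 (-2.39 ± 0.27, adjusted p = 0.00117). Col7a1, whose collagen forms anchoring fibrils, fell from 52.2 and 53.7 to 1.43 and 8.07, Fermt1, which activates integrins at focal contacts, from 49.7 and 85.7 to 17.2 and 9.22, and Dst, a linker of keratin to hemidesmosomes, from 77.6 and 106 to 30.1 and 25.9. Itgb4, the partner of Itga6, was at 47.3 and 69.2 against 28.6 and 13.8, and its call (adjusted p = 0.0252) was lost without KO_2 (-1.03, 0.262), in DESeq2 (0.134), with stricter barcode filters (0.0648) and at a threshold of 6 markers (0.0903). Members outside the call included Itgb1 (66.7 and 92.9 against 51.5 and 60.5) and Plec (99.5 and 107 against 113 and 76.7). Without KO_2, the remaining KO library held 0 Col17a1 UMIs, and the Col7a1 change was -5.08 in place of -3.19.

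Other genes of simple and glandular epithelium rose alongside the simple keratins. Of 12 tested members of that list 10 rose and 1 fell, at a median of +3.72, and the median was +2.85 without KO_2. The list held 22 genes, and the rest were too low to be tested. With no filter on low counts 10 of 18 rose and 1 fell, at a median of +2.83. A gene low in control can pass the filter through its KO counts alone, so the share that rose among tested members is partly set by the filter. Cldn3, a claudin of simple epithelia, had 0 UMIs in both controls and was at 268 and 222 CPM in KO, at least 140-fold higher when 3 counts are allowed over the control arm. Cldn4, its neighbour on chromosome 5, was at 65.5 and 48.5 against 319 and 364 (+2.54 ± 0.24, adjusted p = 0.000557). Anxa3, a calcium-dependent membrane-binding annexin, went from 4.85 and 4.13 to 83.0 and 105 (+4.33, adjusted p = 0.000287). None of these overlapped, which for Cldn3, among the largest rises, was set by the naming rule. The member that fell was Fxyd3, a regulator of the sodium pump, at 295 and 269 against 15.7 and 9.80 (-4.61 ± 0.29, adjusted p = 7.35e-05).

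Tight junctions seal neighbouring cells, and 10 of 19 tested members of a tight and adherens junction list rose while 2 fell (median +1.17). Without KO_2 6 rose and 1 fell, and in DESeq2 4 of 21 rose and 2 fell. Besides Cldn3 and Cldn4, Cldn8 rose from 4.85 and 10.3 to 54.4 and 42.1 CPM (+2.55, adjusted p = 0.00508). Cgn, the tight junction plaque protein cingulin, was at 10.9 and 17.6 against 84.4 and 45.0 (adjusted p = 0.0143; 0.0630 without WT), and Ocln, which encodes occludin, at 13.3 and 11.4 against 32.9 and 42.1 (adjusted p = 0.0194). KO values exceeded control values in all of these. Calls of Ocln and of Marveld3, another 4-pass junction protein gene, were lost without KO_2 (0.192 and 0.0542) and in DESeq2 (0.254 and 0.0862), and that of Ocln at a threshold of 6 markers (0.0927). Pvrl1, which encodes nectin-1 and is mutated in a human ectodermal dysplasia, went the other way, from 58.2 and 75.4 to 8.59 and 6.92 (-3.19 ± 0.33, adjusted p = 0.000836). Ctnnb1, which encodes beta-catenin, was at 387 and 941 against 197 and 160 (-1.92, adjusted p = 0.0167). Its level depended on HET, since the change was -1.24 without that library, and the call was lost without KO_2 (0.0771) or at a threshold of 6 markers (0.0821). Tjp1, at 42.5 and 23.7 against 38.6 and 34.6, and Ctnna1, at 91.0 and 125 against 110 and 121, were not called.

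Desmosomes, the spot junctions that tie keratin filaments of neighbouring cells together, had 5 falls and 1 rise among 11 tested members (median -1.14), with 2 falls and 1 rise under stricter barcode filters and 3 falls and 2 rises at a threshold of 3 markers. Dsp, the desmoplakin gene, was at 633 and 505 CPM in control and 149 and 165 in KO (-1.91 ± 0.23, adjusted p = 0.00189). Dsc3, a desmosomal cadherin of basal cells, was at 222 and 100 against 2.86 and 4.61 (-5.34 ± 0.59, adjusted p = 0.00268). Pkp2, the plakophilin of simple epithelia and heart, had 1 UMI in each control and 33 and 41 in KO, a ratio of 27.3 (counting interval 7.29 to 229, adjusted p = 0.00438). In each case the arms were apart. Pkp1, the plakophilin of stratified layers, was at 170 and 83.6 against 32.9 and 39.8 (adjusted p = 0.0204), a call lost without KO_1 (0.0611) or KO_2 (0.0747) and reduced to -1.13 without WT. Plakoglobin, from Jup, was at 365 and 328 against 416 and 402 (+0.19, adjusted p = 0.597), and Perp, a desmosomal p63 target, at 2653 and 1535 against 495 and 1038 (adjusted p = 0.0894). When barcodes rich in Krt1 and Krt10, all of them control barcodes, were left out, 4 desmosome members rose and 3 fell. Jup was then called higher (+1.22, adjusted p = 0.00476). Because that setting removes control barcodes only, a shift toward KO can be built into it. Pkp1 was no longer called there (-0.44, 0.348), nor with stricter barcode filters (0.114), a threshold of 3 markers (0.0670) or all 8 libraries in the fit (0.153).

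Promoters are shown for genes of either direction that these paragraphs turn on, as the 250 bases before the RefSeq start on GRCm38.p6, read 5′ to 3′ along the gene. Capitals mark GGGCGG, the GC box bound by Sp1, GCCNNNGGC, a site form of the AP-2 factors, and CATGNNNNNNCNNG. The last is a loose form of the p53 family response element, with 1 core as CATG and only the C and G of the other fixed. TATAAA was searched too. Each was searched on both strands, so a GC box may read CCGCCC.
Krt5, fell, chr15:101712906-101713155, minus strand: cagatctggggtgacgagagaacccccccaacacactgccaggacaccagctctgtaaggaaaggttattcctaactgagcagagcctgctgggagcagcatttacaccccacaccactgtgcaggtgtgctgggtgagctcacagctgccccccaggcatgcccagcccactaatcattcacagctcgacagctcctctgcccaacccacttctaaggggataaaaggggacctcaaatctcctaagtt
Dsp, fell, chr13:38151044-38151293, plus strand: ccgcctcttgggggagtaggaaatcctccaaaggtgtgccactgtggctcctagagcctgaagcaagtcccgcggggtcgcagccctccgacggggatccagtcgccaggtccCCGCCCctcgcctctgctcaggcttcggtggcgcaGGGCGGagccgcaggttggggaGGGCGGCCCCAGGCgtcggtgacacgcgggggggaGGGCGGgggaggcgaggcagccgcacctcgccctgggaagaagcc
Cldn3, rose, chr5:134985964-134986213, plus strand: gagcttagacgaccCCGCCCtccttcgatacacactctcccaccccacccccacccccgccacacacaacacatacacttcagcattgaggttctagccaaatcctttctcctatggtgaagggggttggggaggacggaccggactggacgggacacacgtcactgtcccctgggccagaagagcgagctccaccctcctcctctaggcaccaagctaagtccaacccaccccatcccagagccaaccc
Cldn4, rose, chr5:134946935-134947184, minus strand: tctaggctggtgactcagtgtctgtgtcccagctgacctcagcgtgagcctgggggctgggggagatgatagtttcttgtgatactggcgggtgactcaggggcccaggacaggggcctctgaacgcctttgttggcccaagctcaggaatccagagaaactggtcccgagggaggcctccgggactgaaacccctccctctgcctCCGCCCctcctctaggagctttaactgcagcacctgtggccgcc
Satb1, rose, chr17:51833291-51833540, minus strand: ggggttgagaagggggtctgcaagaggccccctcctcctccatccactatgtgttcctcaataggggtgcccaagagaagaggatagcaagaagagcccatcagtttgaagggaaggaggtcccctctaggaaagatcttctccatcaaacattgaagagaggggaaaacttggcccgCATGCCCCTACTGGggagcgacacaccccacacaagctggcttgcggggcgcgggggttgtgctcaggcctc
The Dsp window held 4 GC boxes and 1 GCCNNNGGC, a pair of which overlap, Cldn3 and Cldn4 held 1 GC box each, 236 and 44 bases before the start, and Satb1 held CATGNNNNNNCNNG once, 72 bases before the start. These letters were not found in the Krt5 window. GGGCGG was in 35.4% of all 27025 promoters of the table, in 67.9% of the 6345 of tested genes that matched it, in 63.9% of 382 matched genes that rose and in 70.7% of 379 that fell. For CATGNNNNNNCNNG the shares were 10.6%, 9.17%, 9.69% and 8.71%, for GCCNNNGGC 15.4%, 24.7%, 25.7% and 28.2%, and for TATAAA 14.3%, 7.58%, 11.3% and 9.50%. A match is a run of letters, not a bound site.

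Of 22 tested members of the suprabasal and cornified layer list 9 fell and 3 rose, with a median of -2.81. Without KO_2 10 fell and 1 rose (median -3.61), and 2 rose without HET or KO_1. Lor, which encodes loricrin, the main protein of the cornified envelope, was at 900 and 907 CPM in control and 51.5 and 55.9 in KO (-4.11 ± 0.23, adjusted p = 4.63e-05). Cnfn, the cornifelin gene, was at 94.6 and 68.1 in control with 0 UMIs in KO, at least 65.1-fold lower. Hrnr, a filaggrin relative, was at 114 and 32.0 against 0 and 0.576, 170 times lower by counts (interval 29.9 to 6754), but its call (adjusted p = 0.0195) was lost without KO_1 (0.210) or KO_2 (0.258). All KO values were below all control values in these, which for Cnfn, among the largest falls, was set by the naming rule. Krtdap, expressed as keratinocytes begin to differentiate, was high in every library, at 6280 and 3043 against 7994 and 9371 (adjusted p = 0.225). Dmkn, a secreted protein of the same layers, was at 2739 and 1555 against 1726 and 3190, with overlapping arms (adjusted p = 0.880). Sprr1a, an envelope precursor also raised in injured epithelia, went from 3.64 and 7.23 to 80.1 and 176 (+4.49, adjusted p = 0.00188; 0.134 without HET). Klk8, a kallikrein protease of the upper epidermis, rose from 64.3 and 46.5 to 139 and 194 (adjusted p = 0.00793; 0.0606 without KO_2).

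The controls held cells rich in suprabasal keratins that the KO libraries did not. In 19 of 45 WT and 12 of 39 HET members Krt1 and Krt10 made up at least 0.5% of all UMIs, and no KO member reached that share. Leaving out those 31 barcodes removes control cells only, and by the keratins of the suprabasal layer themselves, so a shift of the list toward KO is built into this setting and the values describe the remaining cells. Then 6 of 16 tested suprabasal members rose and 1 fell, and the median was +1.46. The fall of Lor was then -2.00 (adjusted p = 0.414) and that of Krt77 -1.73 (0.0716). Sbsn, a suprabasal secreted protein at 928 and 674 against 197 and 348 CPM (-1.60, adjusted p = 0.0142), changed sign to +1.75 (0.245), and Dsg1a, a desmosomal cadherin of upper layers, went from -3.14 (0.0239) to +0.11 (0.920). Krtdap and Dmkn were then called higher in KO (+3.14, adjusted p = 0.00941, and +1.40, 0.0227). The Sbsn call was also lost without WT (0.0509) or KO_1 (0.0854) and at a threshold of 3 markers (0.0510), and that of Dsg1a with stricter barcode filters (0.179) and at a threshold of 3 markers (0.05).

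**Figure D3:**
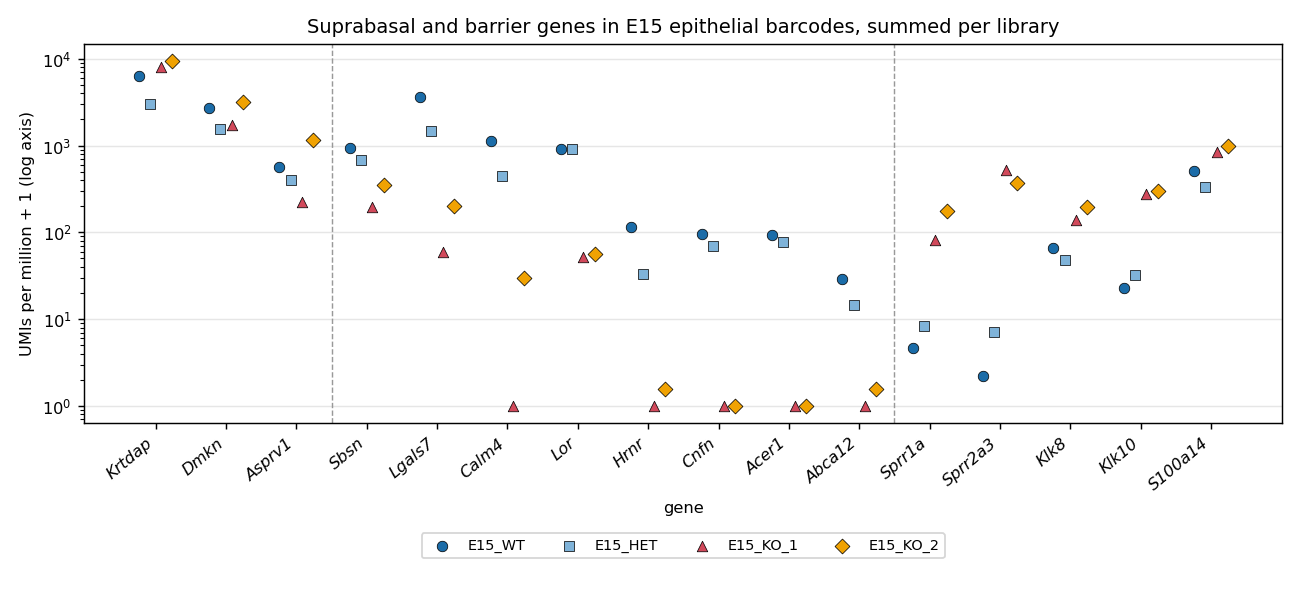
Suprabasal and barrier genes in the epithelial barcodes of each E15 library, in CPM on a log axis with 1 added; each point is 1 library. Lor, Cnfn and Acer1 are lower in both KO libraries, Krtdap and Dmkn stay at 1555 or more in all 4, and Sprr1a is higher in KO.

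Genes of the lipid barrier, which fills the spaces between cornified cells, gave 3 falls and 0 rises among 10 tested members (median -1.49). Without the Krt1 and Krt10 rich control barcodes 2 of 8 rose and 2 fell and the median turned to +0.60, and falls numbered 5 without HET (median -2.94), 5 without KO_1, 4 without KO_2 (median -3.97), 2 with stricter barcode filters and 6 in DESeq2. Acer1, an alkaline ceramidase of the epidermis, was at 93.4 and 77.4 CPM in control with 0 UMIs in KO, at least 68.8-fold lower. Abca12, the lipid transporter of lamellar granules, had 23 and 13 UMIs in control and 0 and 1 in KO, a ratio of 48.9 (counting interval 8.23 to 1983, adjusted p = 0.00677). Pltp, a phospholipid transfer protein, was at 55.8 and 85.7 against 0 and 2.31 (-5.40 ± 0.54, adjusted p = 0.000666), with 0 UMIs left when KO_2 was left out. Fabp5, the epidermal fatty acid binding protein, was at 5583 and 1898 against 228 and 404 and just missed the call (adjusted p = 0.0532). Cers3, the ceramide synthase for very long chains, was at 19.4 and 16.5 against 18.6 and 25.4 (adjusted p = 0.633).

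Of 22 tested transcription factors of epidermal differentiation, 4 rose, 1 fell and 17 were not called (median +0.13), which does not show that those 17 were unchanged. Klf5, a factor of proliferating epithelia, was at 161 and 99.1 CPM against 452 and 619 (+1.98 ± 0.30, adjusted p = 0.00508). Elf5, an ETS factor of glandular epithelia, had 1 UMI in each control and 23 and 45 in KO, a ratio of 25.1 (counting interval 6.67 to 211, adjusted p = 0.00258). Satb1, a chromatin organiser reported as a p63 target, was at 83.7 and 61.9 against 253 and 188 (+1.54 ± 0.26, adjusted p = 0.00704). These 3 genes were higher in both KO libraries. Elf3, another ETS factor, was at 9.70 and 9.29 against 31.5 and 45.5 (adjusted p = 0.0101), a call lost without KO_2 (0.119) and in DESeq2 (0.0988). Gata3 was at 137 and 158 against 165 and 144 (+0.01 ± 0.20), Tfap2a at 63.1 and 82.6 against 57.2 and 93.4, and Grhl3 at 47.3 and 25.8 against 44.4 and 47.3, none of them called. Without the Krt1 and Krt10 rich barcodes 8 of 23 tested factors rose, among them Grhl3 (+2.26, adjusted p = 0.00396) and Zfp750 (+3.48, 0.00101), which drives terminal differentiation. Only control barcodes are left out there, by their suprabasal keratins, so a shift of differentiation factors toward KO can be built into the setting. With all members kept, Grhl3 and Zfp750 were not called.

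Genes reported as p63 targets elsewhere were not uniform. Of 24 tested, 9 fell, 1 rose (Satb1) and 14 were not called, with a median of -1.56, and 14 of 27 fell in DESeq2. Beside Krt5, Pvrl1, Dst and the hemidesmosome genes, Fgfr2, the receptor of keratinocyte growth factor, was at 65.5 and 119 CPM against 7.16 and 0.576 (-5.14 ± 0.67, adjusted p = 0.00391). Fgfr3 was at 30.3 and 19.6 against 1.43 and 1.73 (-3.88, adjusted p = 0.00461; 0.0533 without WT). The receptors were low in both KO libraries. Members at a similar level in both arms were Fras1 (95.8 and 82.6 against 112 and 116), Tfap2c (55.8 and 38.2 against 44.4 and 33.4) and Chuk (19.4 and 25.8 against 18.6 and 19.0).

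Hair placodes are epidermal thickenings that begin follicles, and 8 of 15 tested placode genes fell while 0 rose (median -3.33). Leaving out 1 library gave 15 falls of 17 without WT (median -4.01), 10 of 16 without HET, 9 of 19 without KO_1 and 6 of 18 without KO_2. Dkk4, a secreted Wnt inhibitor of the placode, was at 113 and 85.7 CPM in control with 0 UMIs in KO, at least 79.6-fold lower. Lhx2, a factor of follicle progenitors, was at 36.4 and 86.7 with 0 in KO, at least 51.6-fold lower, and Edaradd, the adaptor of the ectodysplasin receptor, at 26.7 and 27.9 with 0 in KO, at least 22.2-fold lower. Neither KO library held any of the 3 RNAs. All 3 are among the largest falls, named only with at least 10 UMIs in each control library, so their presence in both controls was set by that choice. Fst, the activin inhibitor follistatin, was at 120 and 214 against 1.43 and 4.61 (-5.52 ± 0.44, adjusted p = 0.000271), and Cdh3, the placodal P-cadherin, at 66.7 and 155 against 10.0 and 5.19 (-4.05 ± 0.49, adjusted p = 0.00254). Lef1, a Wnt effector, was at 69.1 and 89.8 against 30.1 and 21.3 (adjusted p = 0.00633), with the call lost without KO_2 (0.0802) and at a threshold of 6 markers (0.156). Bmp2 and Kremen2 completed the falls, and their calls were lost without KO_2 (0.0530) and without HET (0.0810) respectively. The controls differed from each other in some follicle genes. Sox9 was at 19.4 in WT and 147 in HET (0 and 10.4 in KO), and the hedgehog target Ptch1 was at 53.4 and 248 (21.5 and 11.5 in KO), and neither was called. Wnt10a, at 23.0 and 24.8 against 21.5 and 20.8, was level. The Dkk4 call was lost with all 8 libraries in the fit (0.159).

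The Notch pathway, by which suprabasal cells are told to differentiate, had 5 falls and 0 rises among 10 tested members (median -1.04). The receptor Notch1 was at 133 and 135 CPM against 7.16 and 11.5 (-3.78 ± 0.29, adjusted p = 0.000222). Its ligand Jag1 was at 43.7 and 33.0 against 2.86 and 2.31 (-3.94 ± 0.47, adjusted p = 0.00182), and the feedback target Nrarp at 107 and 91.9 against 14.3 and 11 (-3.07 ± 0.31, adjusted p = 0.000683). Receptor, ligand and target were all below control in both KO libraries. Lfng, which modifies Notch receptors, had 20 and 43 UMIs in control and 2 and 0 in KO, a ratio of 42.8 (interval 11.4 to 361), with no UMI left in KO when KO_1 was left out. Hes1, a direct target, was at 187 and 149 against 77.3 and 73.2 (-1.21, adjusted p = 0.0109), a call lost without KO_1 (0.0606), without KO_2 (0.127), after thinning (0.0742) and without Krt1 and Krt10 rich barcodes (0.0621). The other receptors did not follow Notch1: Notch2 was at 23.0 and 20.6 against 17.2 and 31.7, and Notch3 at 42.5 and 37.2 against 51.5 and 57.1.

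In growth factor signalling, 6 of 16 tested genes fell and 3 rose (median -0.53). Of the EGF family ligands in the list, Areg, Ereg and Tgfa were too low to be tested, and Hbegf and Btc rose, Hbegf from 7.28 and 2.06 to 41.5 and 24.8 CPM (+2.73, adjusted p = 0.0169) and Btc from 0 and 2 UMIs to 26 and 81, a ratio of 39.4 (counting interval 10.6 to 330, adjusted p = 0.00189), with 0 control UMIs when HET was left out. The receptor Egfr was at 18.2 and 39.2 against 15.7 and 16.1 and not called. The receptors Fgfr2 and Fgfr3 fell as described above, and Spry1 and Spry2, feedback inhibitors of receptor signalling, were tested and not called. Dusp6, a phosphatase that limits ERK, was at 52.2 and 107 against 20 and 28.2 (adjusted p = 0.0162), and the ETS factors Etv4 and Etv5 at 18.2 and 49.6 against 0 and 1.15 and at 14.6 and 27.9 against 0 and 2.31. Calls of Etv4 and Etv5 were lost without HET (0.0715 and 0.203). Without KO_2, KO held 0 UMIs of either.

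In the BMP and TGF-beta list 4 of 9 tested genes fell and 0 rose (median -0.55). Without HET 1 of 11 rose and 3 fell and the median turned to +0.24, and without KO_2 2 fell. Besides Fst and Bmp2, Tgfb1 fell from 32.7 and 52.7 to 8.59 and 12.1 CPM (-2.01, adjusted p = 0.00893), and was not called in DESeq2 (0.0613). Bmp7 was at 87.3 and 150 against 57.2 and 27.7 (-1.61, adjusted p = 0.0307), with the call lost without HET (0.0862) and a change of -1.05 (0.198) without KO_2. The BMP targets Id1, Id2 and Id3 were not called, with Id1 at 63.1 and 69.2 against 65.8 and 103.

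A minority of the DNA replication and division genes were called, and all of those called fell. Of 24 S phase genes 8 fell and 0 rose (median -0.83), with 4 falls without KO_1, 4 without KO_2, 3 in DESeq2, 3 at a threshold of 6 markers and 4 with stricter barcode filters. Of 24 genes of G2 and M phase 3 fell and 0 rose (median -0.71), with 8 falls without WT (median -0.88), 1 without HET, 0 without KO_1 or KO_2, and 1 in DESeq2 or with stricter barcode filters. With no filter on low counts 8 fell, with all 8 libraries in the fit 6 fell, and without the fibroblast-rich barcodes 6 fell. Uhrf1, which keeps DNA methylation through replication, was at 82.5 and 147 CPM against 32.9 and 34.6 (-1.79 ± 0.29, adjusted p = 0.00620), and Dtl, a ubiquitin ligase adaptor of S phase, at 55.8 and 92.9 against 10.0 and 25.4 (-1.96 ± 0.39, adjusted p = 0.0139). Both were lower in both KO libraries. Top2a, the topoisomerase of dividing cells, was at 198 and 315 against 102 and 108 (-1.32, adjusted p = 0.00807), a call lost without KO_1 (0.0606), without KO_2 (0.0711) and after thinning (0.227). Mki67, the proliferation marker, was at 83.7 and 145 against 45.8 and 62.3 (adjusted p = 0.0390), and that call was lost without HET (-0.71, 0.0968), KO_1 (0.220) or KO_2 (0.101), in DESeq2 (0.181), without scaling (0.0596) and with stricter barcode filters (0.0523). Cdk1 was at 108 and 107 against 74.4 and 96.3 and Birc5 at 171 and 217 against 169 and 182, neither called. Without the Krt1 and Krt10 rich control barcodes, 18 of 24 S phase and 12 of 24 G2 and M phase genes fell, with medians of -1.22 and -1.02. That setting removes control barcodes only, by their suprabasal keratins. A shift of cycle genes may thus be built in, and these counts describe the remaining cells.

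Called genes of interferon and antigen presentation and of the p53 and stress response went both ways. The share called among all tested genes was 12.3%. Ifitm3, an interferon-induced membrane protein, fell from 302 and 416 to 37.2 and 44.4 CPM (-3.16 ± 0.23, adjusted p = 0.000174), while Tap1, the peptide transporter of antigen presentation, rose from 17.0 and 11.4 to 97.3 and 104 (+2.79 ± 0.31, adjusted p = 0.00116). The interferon list as a whole had 2 rises and 2 falls among 10 tested. Pmaip1, the proapoptotic Noxa gene, rose from 15.8 and 14.5 to 136 and 79.0 (+2.75 ± 0.37, adjusted p = 0.00278), and Trp53inp1, a p53-induced stress protein, from 8.49 and 10.3 to 48.7 and 50.2 (+2.33 ± 0.33, adjusted p = 0.00352). Cdkn1a, the classical p53 target, was at 144 and 101 against 35.8 and 169 with overlapping arms (adjusted p = 0.880), and that list had 2 rises and 1 fall among 15 tested. Of 11 tested mesenchymal genes (median -0.29) 3 rose and 1 fell of 13 without KO_1, where the KO arm was KO_2 alone (median +0.89), 0 rose and 3 fell without the fibroblast-rich barcodes (median -0.68), and 0 were called in DESeq2. With all 4 libraries only Snai2 was called, lower in KO at 15.8 and 17.6 against 0 and 2.31 (adjusted p = 0.0158; 0.0973 without WT, 0.159 without HET and 0.0969 in DESeq2), and Vim was at 292 and 196 against 122 and 191 (adjusted p = 0.174).

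**Figure D4:**
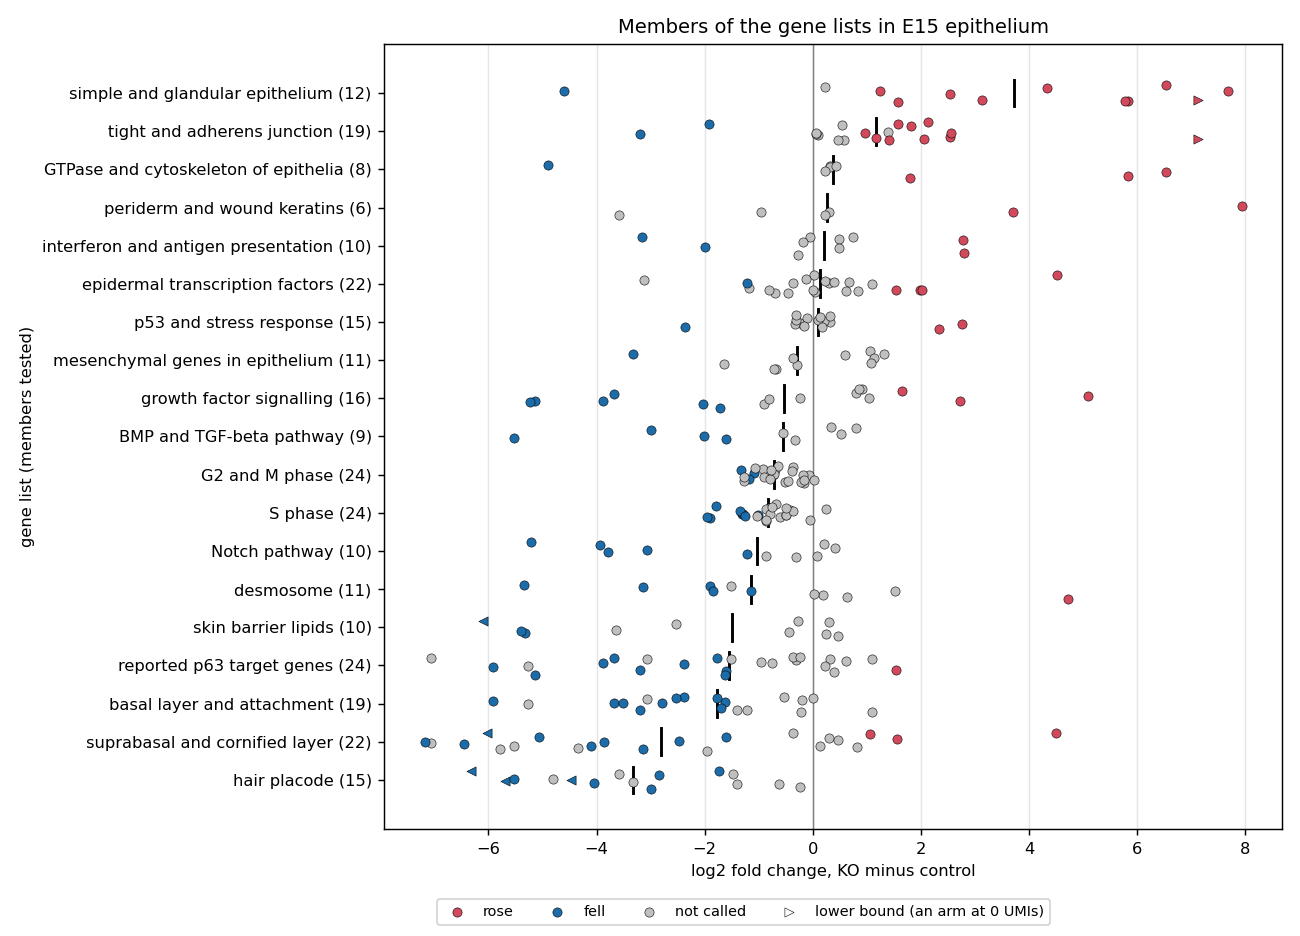
Log2 fold change (KO minus control, horizontal axis) of each tested member of the gene lists at E15, coloured by call, with the list's median as a bar and arrowheads for lower bounds where an arm held 0 UMIs. The simple and glandular list has 10 rises of 12 tested and the basal list 10 falls of 19.

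Several genes that rose had 0 UMIs in both controls, so that only a lower bound of the rise can be given and they cannot be ranked against genes with control UMIs such as Krt19. Besides Cldn3 these were Gng13, a G protein gamma subunit of taste and olfactory cells, at 104 and 89.9 CPM (at least 56.2-fold), Casq2, the cardiac calsequestrin, at 77.3 and 99.7 (at least 55.8-fold), Cpa4, a carboxypeptidase, at 81.6 and 79.5 (at least 47.9-fold), and Mslnl, a mesothelin relative, at 55.8 and 74.4 (at least 41.3-fold). Aox3, an aldehyde oxidase, Blnk, an adaptor of B cell signalling, Msln, the mesothelial surface protein mesothelin, Arhgef38, a guanine nucleotide exchange factor, and Upk2, a uroplakin of bladder lining, followed with bounds of 30.9, 26.5, 23.3, 18.2 and 15.0. Sprr2b, at least 25.3-fold, and Sprr2a3, at 1.21 and 6.19 against 518 and 371 (+6.76 ± 0.43, adjusted p = 0.000105), are envelope precursors from a cluster of near-identical genes, so reads may have been split or dropped among them. For the largest rises the naming rule asked for at least 10 UMIs in each KO library, so their presence in both was set by that choice.

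Other genes fell to 0 UMIs in KO, where again only a bound can be given. Pthlh, the parathyroid hormone-like peptide that keratinocytes send to the dermis, was at 57.0 and 176 CPM in control (at least 98.2-fold lower, adjusted p = 0.0155), a call lost with stricter barcode filters (0.0535). Sdr16c5, a retinol dehydrogenase, was at 107 and 50.6 (at least 62.0-fold), Rbp2, a retinol-binding protein, at 72.8 and 22.7 (at least 37.1-fold; adjusted p = 0.0338, lost without KO_2 at 0.130 and at thresholds of 6 markers, 0.0801, and 3 markers, 0.0525), and Alox12, a lipoxygenase of skin lipids, at 42.5 and 21.7 (at least 25.3-fold). Orm1, Clca3a2 and Aldh1a7, with bounds of 50.2, 22.2 and 21.7, have near-identical relatives and are uncertain, and the Clca3a2 call was lost without WT (0.0546). Dkk4, Acer1, Cnfn, Lhx2 and Edaradd, given above, belong to the same set.

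The effect of the knockout differed between E15 and E13 for a part of the genes. With 1 mean for each age and arm over all 8 libraries, 506 of 11951 genes (4.23%) had a KO effect at E15 that differed from that at E13. Among them were 31 of 307 list members with a fit. At E13, fibroblast-rich barcodes numbered 1 of 167 members in WT, 4 of 159 in HET, 17 of 111 in KO_1 and 37 of 159 in KO_2. Without fibroblast-rich barcodes 628 of 11644 genes were called. All E13 libraries held Xist (1560 to 2117 CPM) and no Ddx3y, and all E15 libraries held Ddx3y (39.8 to 57.8) with Xist at 1.03 or less, so age and sex of the libraries cannot be told apart, while the arms of each age matched.

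Several genes of differentiation were low in KO at E13 and not at E15. Cldn1, the main claudin of the epidermal barrier, was at 13.8 and 11.9 in control and 1.56 and 1.96 in KO at E13, and at 52.2, 25.8, 64.4 and 55.9 at E15, a difference of +3.54 (adjusted p = 0.00405). Zfp750 was at 18.9, 17.6, 4.69 and 3.76, then 60.6, 25.8, 51.5 and 64.6 (+2.68, adjusted p = 0.0173). At E13 both KO libraries lay below both controls for both genes, and at E15 they did not. Krt15 had 1137, 459, 68.2 and 53 at E13 (difference +4.96, adjusted p = 0.0406), and Krtdap 44.4, 35.9, 3.71 and 6.05 (+3.98, adjusted p = 0.0359), while the KO level of both was above control at E15. The Krt15 and Krtdap differences lost their call without any 1 of 6 of the 8 libraries, at adjusted p of up to 0.141 and 0.107, and that of Zfp750 at up to 0.111.

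Other genes were lower in KO relative to control at E15 than at E13. Itga6 was at 54.7, 52.2, 33.4 and 38.9 at E13 (difference -1.69, adjusted p = 0.00812; 0.0592 without E15 KO_2), Cdh3 at 113, 104, 72.5 and 66.4 (-3.31, adjusted p = 0.0121; 0.111 without E15 KO_2), and Fxyd3 at 66.2, 52.2, 16.2 and 15.4 (-2.59, adjusted p = 0.00397). Tgfb1 was higher in KO at E13, at 4.54, 6.47, 16.6 and 15.0, and lower at E15 (-3.39, adjusted p = 0.00397). Among genes that rose, Klk10, a kallikrein, was at 2.12, 1.08, 0.977 and 0.981 at E13 and at 21.8, 31.0, 273 and 301 at E15 (+4.22 ± 0.51, adjusted p = 0.00299), and Sprr2a3 was at 9.39, 10.0, 16.2 and 23.6 at E13 (+5.87 ± 0.51, adjusted p = 0.000592). Satb1 was at 134, 135, 116 and 97.1 at E13 (difference +2.02, adjusted p = 0.00442). By contrast the difference between ages was not called for Krt8 (22.0, 3.39, 829 and 661 at E13; +0.11, adjusted p = 0.986), Dsp (-0.13, 0.820) or Ifitm3 (-0.00, 1), which does not show that their effects were equal.

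**Figure D5:**
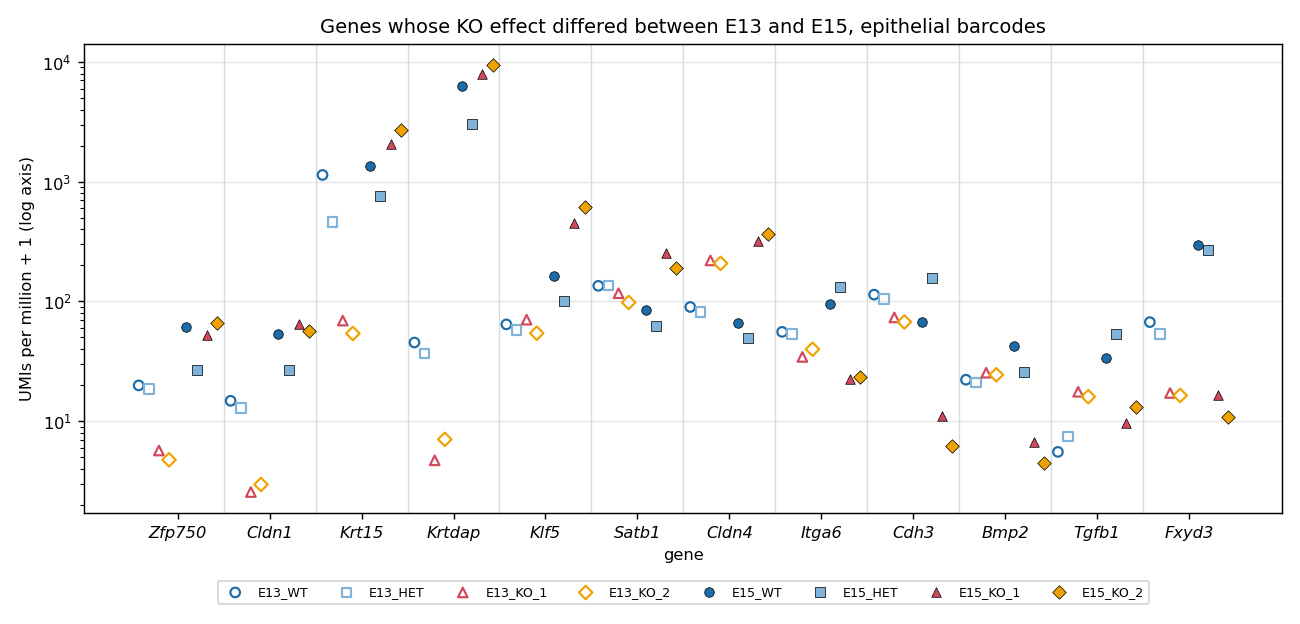
Levels of genes in epithelial barcodes at E13 and E15 in CPM on a log axis with 1 added; each point is 1 library, open at E13 and filled at E15. Cldn1 and Zfp750 are lower in KO at E13 and overlap or exceed control at E15.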

How the data were processed

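The authors deposited raw UMI counts per gene and barcode for 8 libraries, and per the submitters' processing notes Cell Ranger, Seurat and mm10 were used, with versions not given in the sources used here. Barcodes were filtered and chosen as stated in the report, and their counts were summed per library. The members and the gene lists were chosen with earlier results of these data known. Genes passing filterByExpr (minimum count 10) were scaled by TMM and tested in edgeR 4.0.16 (R 4.3.3) with the robust quasi-likelihood test and Benjamini-Hochberg adjustment at 0.05, E15 WT and HET against KO_1 and KO_2. The SE is the log2 fold change divided by the square root of F. E15 and E13 effects were compared as a contrast over all 8 libraries. Bounds allow 3 counts over the pooled arm, and ratios with 1 to 3 counts carry exact Poisson intervals. Named genes were Trp63, the 12 largest called rises and 12 largest falls without overlap between arms (at least 10 UMIs in each library of the higher arm), up to 5 members of each list by smallest p with well known members that did not pass, keratins with at least 20 UMIs, the 5 largest differences between ages each way, and members whose direction depended on the setting; other genes named beside these were chosen after their values were seen, and some genes the rule named are not reported here. Detection used 2000 UMIs a barcode. On simulated data at E15, 18% of genes changed by 1 log2 unit and 85% of those changed by 2 were called. Every simulated gene had the same dispersion of 0.05, and only genes expected above 10 counts in the smallest library were changed. The shares may thus not hold for genes with fewer counts or a wider spread between libraries. Alternatives covered scaling, DESeq2 1.42.0, filters, the marker threshold, thinning and each library left out. Symbols shared by more than 1 identifier (121 identifiers) were kept apart.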

Additional observations from a re-analysis of the deposited data

Results flagged for a closer look

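For 36 named genes the KO effect at E15 differed from that at E13 in the test of the difference itself (edgeR's quasi-likelihood test, Benjamini-Hochberg adjusted over 11951 genes, of which 4.23% were called). Age and sex of the libraries cannot be told apart in this comparison.

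Among genes called higher in KO at E15, the adjusted p of the difference was Cldn4 0.0149, Tap1 0.0412, Klf5 0.0174, Satb1 0.00442, Cdc42ep5 0.00405, Btc 0.0333, Klk10 0.00299, Sprr2a3 0.000592, Meg3 0.0364, Bex1 0.0255, Rpusd1 0.00623, Casq2 0.0473, Blnk 0.0390 and Upk2 0.0298. Cdc42ep5, an effector of the GTPase Cdc42, was at 99.9 and 96.7 CPM in control and 114 and 102 in KO at E13, and at 32.7 and 36.1 against 113 and 133 at E15 (difference +1.81 ± 0.24). Klf5 was at 63.3 and 56.5 against 69.4 and 53.3 at E13.

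Among genes called lower in KO at E15, it was Itga6 0.00812, Fxyd3 0.00397, Cdh3 0.0121, Lfng 0.0404, Etv4 0.0171, Bmp2 0.00798, Tgfb1 0.00397, Pthlh 0.0300, Lhx2 0.0303, Rbp2 0.0436 and Alox12 0.0438. Bmp2 was at 21.2 and 20 CPM against 24.4 and 23.4 at E13.

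Among genes not called at E15, or (Agrp, Ppp2r2b, Emcn and Flt1) too low to be tested there, it was Cldn1 0.00405, Zfp750 0.0173, Krt15 0.0406, Krtdap 0.0359, Notch3 0.00442, Tgfb2 0.0155, Cyr61 0.0485, Agrp 0.0375, Ppp2r2b 0.0347, Emcn 0.00956 and Flt1 0.0362. Notch3 was at 10.4 and 10.2 CPM against 56.7 and 56.7 at E13, and at 42.5 and 37.2 against 51.5 and 57.1 at E15. The endothelial genes Emcn and Flt1 were at 13.3 and 4.13 and at 13.3 and 1.03 CPM in E15 controls with 0 UMIs in KO. At E13 they were higher in KO, at 6.64 and 15.9 and at 4.89 and 10.3. Summed endothelial markers, Emcn among them, were at 45.0 and 35.6 in E13 control members and 104 and 201 in E13 KO members. Mural markers, Notch3 among them, were at 13.6 and 18.8 against 71.3 and 86.0. The part of endothelial and mural cells in these differences was not tested.

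Of these 36 differences, 9 were still called without E15 KO_2, 14 without E13 KO_2, 15 without E13 KO_1, 17 of 35 without E13 WT, and 4 in every setting that tested them.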

How the results depend on the processing

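Genes called at E15 numbered 1010, and 515 in DESeq2, 1863 with no filter on low counts, 101 after thinning, 1559 without Krt1 and Krt10 rich barcodes, 1946 with all 8 libraries in the fit, and 474 to 1177 with 1 library left out (lowest without KO_2). Other scalings, barcode filters and marker thresholds gave 762 to 1109. These counts come from different numbers of tested genes. There were 8192 in the main fit, 15615 in DESeq2 and with no filter on low counts, and 1284 after thinning. A lower count after thinning is thus in part a matter of fewer genes tested. The difference between ages was tested for 11951 genes in the main fit, 18292 with no filter and 3393 after thinning. Differences between ages numbered 506, and 1161 with no filter, 320 with stricter barcode filters, 45 after thinning, 1051 without Krt1 and Krt10 rich barcodes, and 85 to 811 with 1 library left out. The epithelial share of WT was 3.61% at 6 markers, 11.4% at 3 and 4.69% without Krt1 and Krt10 rich barcodes, and that of HET 2.82%, 5.86% and 2.93%, and 2.71% with stricter filters. Of 120 called genes taken by the naming rule or named for their values, 71 stayed called in every setting that tested them; 24 lost the call without KO_2 and 17 in DESeq2. Without Krt1 and Krt10 rich barcodes Sbsn reversed to +1.75, Dsg1a to +0.11 and the age difference of Notch3 to +0.54; this setting removes control barcodes only, by their suprabasal keratins. No paired analysis was possible because the control libraries carry no replicate numbers in the labels. With 18 KO_1 barcodes and 2 libraries an arm, changes of 1 log2 unit were mostly not detectable.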

Other observations

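Genes in this section were chosen after their values were seen. Lmo1, a LIM-domain transcription cofactor, was at 193 and 236 CPM in E15 control and 4.29 and 3.46 in KO (-5.85 ± 0.30, adjusted p = 4.63e-05). Cryab, a small heat shock protein, was at 9.70 and 7.23 against 280 and 259 (+4.94 ± 0.28, adjusted p = 4.63e-05), and Hspb2, a related chaperone, at 0 and 1.03 against 41.5 and 39.8. Syngr1, a synaptic vesicle protein, went from 9.70 and 10.3 to 256 and 301 (+4.74 ± 0.26, adjusted p = 4.63e-05). The arms were apart for all 4 genes. Bex1, a gene of neural and other progenitors, was at 13.3 and 29.9 against 414 and 552 (+4.42 ± 0.33, adjusted p = 0.000197), and at 25.4 to 37.9 in E15 barcodes with no epithelial marker. Meg3, an imprinted non-coding RNA, was at 107 and 171 against 1334 and 1657 (+3.39 ± 0.26, adjusted p = 0.000197), and at 2797 to 5188 in barcodes with no epithelial marker, and its call was lost at a threshold of 3 markers (+1.79, 0.400).

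Several genes that rose lie side by side. On chromosome 17 (GRCm38), Gng13, Rpusd1, Mslnl and Msln lie within 37.2 kb, from 25717171 to 25754378, and all 4 rose. Rpusd1, a pseudouridine synthase relative, was at 9.70 and 6.19 CPM in control and 68.7 and 50.7 in KO (+2.84 ± 0.39, adjusted p = 0.00303). Chtf18, which overlaps Gng13 on the opposite strand, was at 7.28 and 16.5 against 15.7 and 15.0 (adjusted p = 0.723), and Narfl, the next gene, at 9.70 and 14.5 against 32.9 and 27.7 (adjusted p = 0.0590). Cldn4 and Cldn3, 39.3 kb apart on chromosome 5, both rose. Wbscr27, beside Cldn4, was at 2.43 and 13.4 CPM in control and 45.8 and 28.2 in KO (+2.05, adjusted p = 0.0482). Its change was +1.42 without WT, +3.68 without HET and +1.76 without KO_1.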
